A study of Mus musculus with 3 samples.

Results

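The genes of colonic ion and water transport described here are Car1, Car4, Slc26a3, Slc9a3, Aqp8, Atp12a, Scnn1a, Scnn1b, Cftr and Slc12a2. They were matched by symbol, 10 of the 31053 genes in a droplet single-cell RNA sequencing matrix of the mouse colon-to-anus transition. The mice were C57Bl/6 animals bought at 6 weeks of age, and their sex and their age at dissection are not given in the sources used here. The day 0 group drank plain water, carried no injury and was scored as histologically normal. The other groups drank water with 3% dextran sulfate sodium (DSS), which injures the colonic lining, for 6 days. They were dissected on day 7, scored as severe colitis, or on day 42, scored as recovered. Distal colon and anus of 5 mice were pooled into 1 library per day, so there is no replicate. Each ratio between days is therefore a description of 3 libraries with no test, and both later days are read against the same day 0 library. Of 37080 cells in 29 clusters named by the authors, columnar cells are those of cluster 2, cluster 7 and cluster 22 (Colonocytes), cluster 15 (Colonocytes - Secretory) and cluster 24 (Colonocytes - EEC). Keratinocytes fill another 10 clusters.

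The colonic lining takes up salt and water mainly through surface cells and can release chloride and fluid from the crypts. In electroneutral absorption the apical exchanger Slc26a3 (also called DRA) takes in chloride for bicarbonate while Slc9a3 (NHE3) takes in sodium for protons. Cytosolic carbonic anhydrase Car1 and membrane-anchored carbonic anhydrase Car4 interconvert carbon dioxide and bicarbonate, and Aqp8 is a water channel. Scnn1a and Scnn1b encode the alpha and beta subunits of the epithelial sodium channel ENaC, and Atp12a encodes the catalytic subunit of the colonic proton-potassium pump. For secretion, basolateral Slc12a2 (NKCC1) loads chloride into the cell and the apical channel Cftr lets it out.

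The stretches of 250 bases before the annotated start are shown for Slc26a3 and Aqp8, which had their highest level in cluster 2 among columnar clusters of at least 50 cells, and for Cftr, which on days 0 and 42 had its highest in cluster 7. They come from RefSeq on GRCm38.p6, 5′ to 3′, at chr12:31437969-31438218, chr7:123462044-123462293 and chr6:18170437-18170686, all on the plus strand. The Slc26a3 stretch lies before the RefSeq start, which is inside the GENCODE gene bounds given for this gene further on. Capitals mark matches to the letters searched on both strands, which were TTTATNNC for CDX factors, CAAAGNNCA for HNF4, the steroid receptor element (a palindrome with a spacer), and TATAAA for the TATA box.
Slc26a3: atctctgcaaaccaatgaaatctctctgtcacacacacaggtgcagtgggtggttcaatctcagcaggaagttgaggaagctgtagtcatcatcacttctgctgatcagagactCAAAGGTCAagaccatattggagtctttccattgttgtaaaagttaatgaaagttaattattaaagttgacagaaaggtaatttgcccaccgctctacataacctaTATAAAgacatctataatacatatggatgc
Aqp8: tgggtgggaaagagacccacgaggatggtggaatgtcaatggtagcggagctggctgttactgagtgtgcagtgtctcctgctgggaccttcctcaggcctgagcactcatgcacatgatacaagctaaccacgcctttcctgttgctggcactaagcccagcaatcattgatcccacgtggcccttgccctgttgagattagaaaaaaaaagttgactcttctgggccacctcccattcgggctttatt
Cftr: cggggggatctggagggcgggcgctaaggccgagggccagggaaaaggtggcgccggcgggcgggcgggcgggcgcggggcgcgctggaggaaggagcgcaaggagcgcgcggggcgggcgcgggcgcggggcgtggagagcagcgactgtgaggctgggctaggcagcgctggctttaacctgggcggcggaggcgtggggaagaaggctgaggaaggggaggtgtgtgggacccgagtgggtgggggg
The Slc26a3 stretch held CAAAGGTCA on its plus strand at bases 115 to 123 and TATAAA at bases 221 to 226, counted from its 5′ end, and 38.8% of its bases were G or C. No letters searched were found in the Aqp8 stretch (52.4% G or C) or in the Cftr stretch (76.4% G or C). Among 32851 RefSeq promoter stretches of this length, 5.49% held the HNF4 letters, 11.2% the CDX letters, 12.4% TATAAA and 0.387% the steroid receptor element. Promoters of 6 of the 10 genes were matched, and those of Car4, Slc9a3 and Scnn1b held no match. A match is a description of letters and not a binding site.

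The libraries held 11037, 14376 and 11667 cells on days 0, 7 and 42, with 89241138, 151886649 and 72258639 unique molecule counts (UMIs). Columnar cells numbered 4306, 1062 and 1680, which was 39.0%, 7.39% and 14.4% of each library. Cluster 2 held 1936, 703 and 1072 cells, and cluster 7 held 1809, 33 and 412. Cluster 15 held 479, 35 and 179 cells, cluster 24 held 78, 12 and 12, and cluster 22 held 279 cells on day 7 against 4 and 5 on the other days. All 10 genes of a fixed columnar marker list had counts in cluster 2, cluster 7 and cluster 22 on the days described. In cluster 2 the median mitochondrial share per cell was 28.8%, 14.0% and 14.5% on days 0, 7 and 42, and the median depth was 4419.5, 7194 and 3712 UMIs. Both moved with the day, and their part in the differences below was not tested. Cells whose barcode also occurs in another library numbered 84, 99 and 95, of which 23, 4 and 14 were columnar.

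Levels are summed UMIs per 1000000 summed UMIs (CPM) of a cluster in a library, with 95% intervals that cover counting error only. A log2 ratio compares 2 such levels after 10 CPM was added to each, which understates the change of low genes. A gene counts as higher or lower at a log2 ratio of at least 1 either way, among genes with 5 CPM or more in either group. The counts come from transcript 3′ ends, so a level is compared between cells and days and not between genes. The authors clustered these same cells by their expression, so contrasts between clusters describe the clusters and test nothing. T cells, which are not epithelial, gave a reference for these genes. Of 204 T cells on day 0, 2.45% had a UMI of Slc12a2, which many cell types use, and 1.96% had a Car1 UMI, at a median of 2138 UMIs per cell. No other gene among the 10 was seen in more than 1.96% of them on day 0, and on day 7 the highest share was 0.935% of 107 T cells (median 2293 UMIs). On day 42 it was 1.74% of 115 T cells, at a median of 1435 UMIs.

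Among columnar clusters of at least 50 cells, both carbonic anhydrase genes, Slc26a3 and Aqp8 were highest in cluster 2 on each day. On day 0, Car1 (chr3:14766216-14808368, minus strand; gene bounds here are GENCODE M21 on GRCm38) stood at 1904 CPM in cluster 2 (95% interval 1880 to 1928), 32.0 CPM in cluster 7 and 34.1 CPM in cluster 15. Car4 (chr11:84957786-84966044, plus strand) stood at 525 CPM in cluster 2, 5.65 CPM in cluster 7 and 20.5 CPM in cluster 15. Slc26a3 (chr12:31390871-31473917, plus strand) stood at 628 CPM in cluster 2, 8.54 CPM in cluster 7 and 21.1 CPM in cluster 15. These transcripts thus lay almost wholly in 1 cluster, with day 0 levels 59.4-fold, 92.8-fold and 73.6-fold higher in cluster 2 than in cluster 7. The water channel Aqp8 (chr7:123462291-123468004, plus strand) showed the same layout, at 375 CPM in cluster 2 (365 to 386) and 4.36 CPM in cluster 7 (3.61 to 5.22). Cluster 2 alone held 93.8% of all Car1 UMIs of the day 0 library.

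The pump gene Atp12a and the ENaC genes were spread more widely over the columnar clusters. Atp12a (chr14:56365068-56388550, plus strand) was at 388 CPM in cluster 2, 40.5 CPM in cluster 7 and 158 CPM in cluster 15 on day 0. Scnn1a (chr6:125320659-125344943, plus strand) was at 87.5 CPM in cluster 2, 9.76 CPM in cluster 7 and 46.1 CPM in cluster 15. Scnn1b (chr7:121865038-121918514, plus strand) was low, at 12.8 CPM in cluster 2, 1.26 CPM in cluster 7 and 18.8 CPM in cluster 15. Scnn1b was higher in cluster 15 than in cluster 2 on each day, at 92.1 against 24.1 CPM on day 7 and 18.5 against 5.84 CPM on day 42. Its counting intervals in the 2 clusters overlapped on day 0 (14.5 to 23.9 and 10.9 to 14.9) and did not on the later days, with 35 cells in cluster 15 on day 7. Slc9a3 (chr13:74121457-74169442, plus strand) was scarcely seen, with 6, 22 and 7 UMIs in cluster 2 on days 0, 7 and 42 and none in cluster 7 or cluster 15. On day 0 a count of 0 allows up to 0.111 CPM of Slc9a3 in cluster 7 and 0.853 CPM in cluster 15, taken as 3 counts. Its cluster 2 level was 0.471, 3.23 and 1.36 CPM, under the 5 CPM needed for a call.

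Cftr and Slc12a2, the secretory pair, were low in cluster 2 and had different peaks among the other clusters. Cftr (chr6:18170687-18322768, plus strand) was highest in cluster 7, at 72.0 CPM on day 0 and 96.6 CPM on day 42, with a UMI in 54.6% and 59.7% of cells. In cluster 2 it was at 10.2 and 15.8 CPM, and in cluster 15 at 7.40 and 17.6 CPM, on the same days. Slc12a2 was highest in the secretory cluster 15, at 1016 CPM on day 0 and 724 CPM on day 42, with a UMI in 78.1% and 61.5% of cells. Cluster 7 came next for Slc12a2 at 191 and 245 CPM, and cluster 2 was lowest of these at 14.0 and 21.2 CPM. A fixed list of 7 goblet cell genes summed to 25114 CPM in cluster 15 on day 0, against 1023 CPM in cluster 7 and 422 CPM in cluster 2. A list of 6 cell division genes summed to 705 CPM in cluster 7 and 23.9 CPM in cluster 2. In cluster 24 on day 0 Slc12a2 stood at 47.5 CPM, Slc26a3 at 21.1 CPM and Scnn1a at 15.8 CPM, while Cftr had a UMI in 0 of 78 cells, which allows up to 4.62% of cells with a detected UMI and sets no limit on expressing cells.

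On day 0, 7 of the 9 genes with enough counts were higher in cluster 2 than in cluster 7, where 4.16% of all genes were, and 2 (Cftr and Slc12a2) were lower, where 9.96% were. Scnn1b, at a log2 ratio of 1.02, was under the threshold in filtered cells (0.76) and without the 10 richest cells (0.96). On day 42 the counts were 6 higher (5.06% of all genes) and 2 lower (9.7%). Against cluster 15, 5 genes were higher in cluster 2 on day 0 (5.35%) and 6 on day 42 (6.24%). Slc12a2 was the 1 lower gene on each of those days (6.8% and 7.18% of all genes). Atp12a was under the threshold on day 0 with means per cell (0.74), and Scnn1a on day 42 without the highest doublet scores (0.98). Between cluster 7 and cluster 15, Cftr was 9.74-fold higher in cluster 7 on day 0 and 5.48-fold on day 42, while Slc12a2 was 5.31-fold and 2.95-fold higher in cluster 15. That contrast gave 1 gene higher and 4 lower in cluster 7 on day 0 (2.84% and 2.98% of all genes) and 2 higher and 5 lower on day 42 (2.04% and 3.03%). On day 0, Car4 (-1.69), Slc26a3 (-1.21) and Aqp8 (-1.56) were lower as well with 1 CPM added, Car4 also under 3 further alternatives and Aqp8 under 2. Of the day 42 calls, Car1 was lost with means per cell (0.97), and Scnn1b without the 10 richest cells (-0.77), where Car4 was at 0. The median log2 ratio over all genes was -0.26 for cluster 2 against cluster 7 on both days, so the ratios of that contrast read against a baseline below 0. On days 0 and 42 it was -0.19 and -0.17 for cluster 2 against cluster 15. For cluster 7 against cluster 15 it was above 0, at 0.11 and 0.13.

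**Figure D1:**
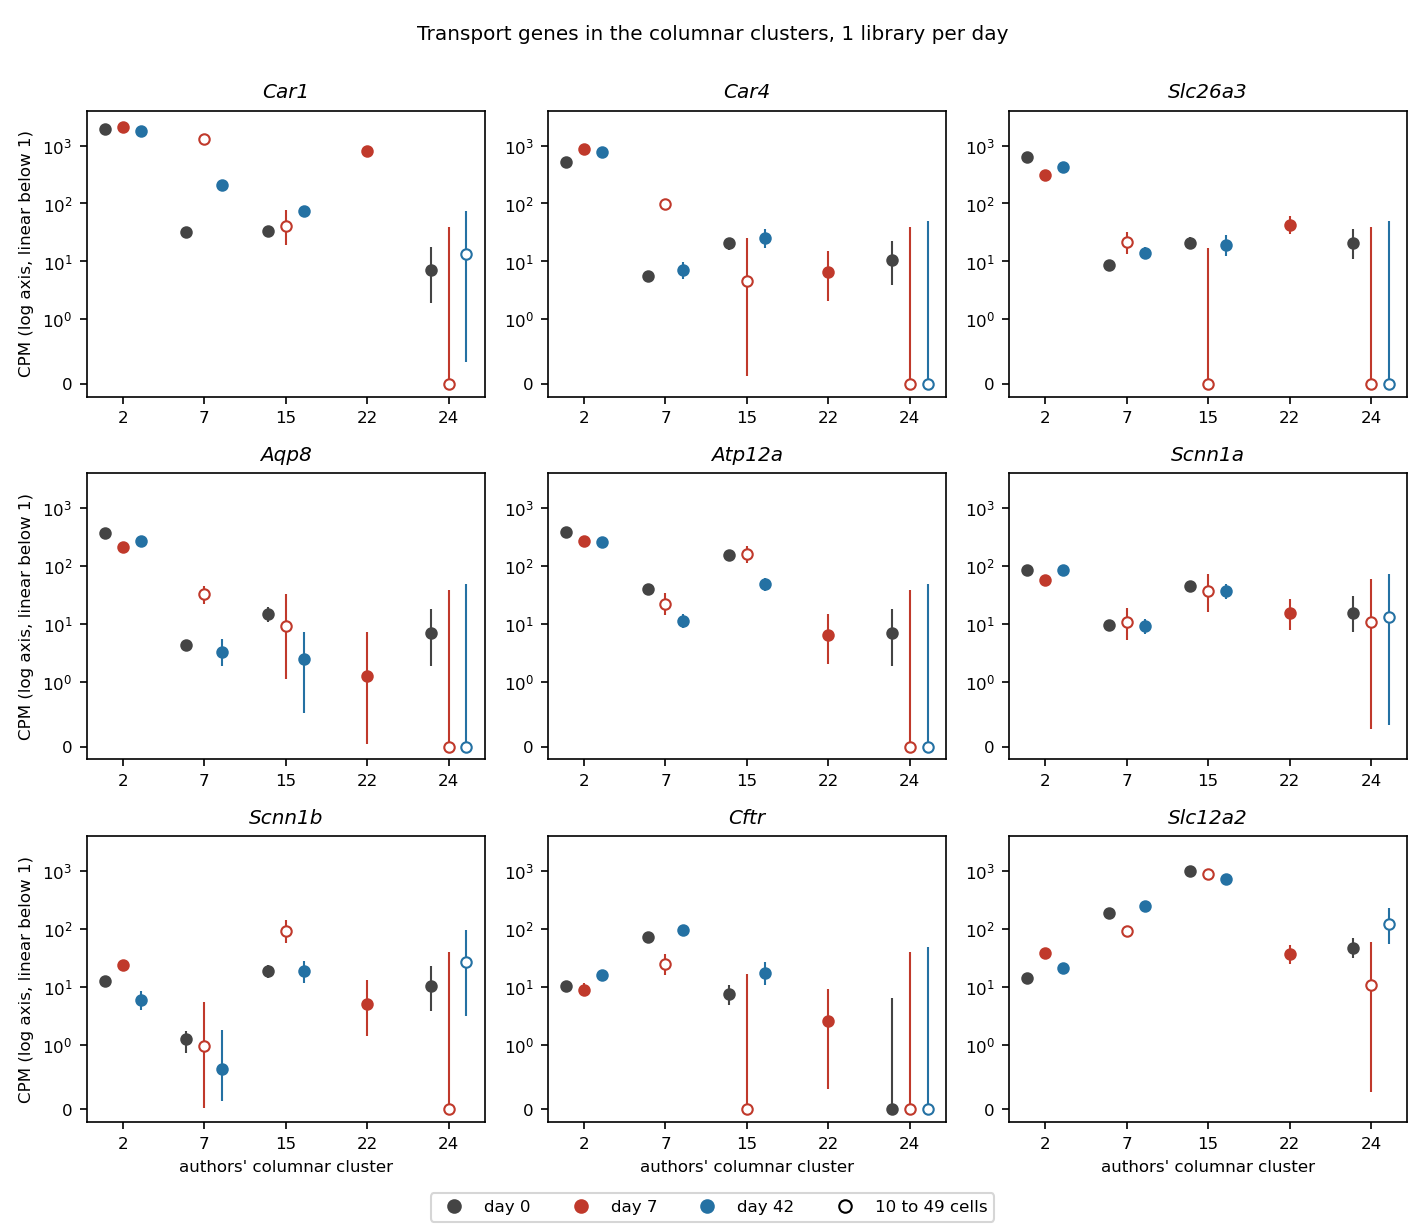
Level of 9 transport genes (CPM, axis linear near 0 and logarithmic above) in the columnar clusters on days 0, 7 and 42, with 95% Poisson intervals; open points rest on 10 to 49 cells, and clusters with under 10 cells are not drawn. Car1, Car4, Slc26a3 and Aqp8 peak in cluster 2, Scnn1b is higher in cluster 15 than in cluster 2 on each day, Cftr peaks in cluster 7 (72.0 CPM on day 0) and Slc12a2 peaks in cluster 15 (1016 CPM on day 0).

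Within cluster 2 the absorptive genes did not all differ between days in one direction. Markers of other cell types in cluster 2 also moved with the day, with the 6 neutrophil genes at a summed 1.96, 1373 and 99.5 CPM and the 8 keratinocyte genes at 1568, 2182 and 3111 CPM on days 0, 7 and 42. On day 0, 4 of the 6 neutrophil genes had a UMI there, and all of both lists did otherwise. A list of 6 fibroblast genes went the other way, at a summed 150, 61.8 and 18.9 CPM. The part of these transcripts in the differences was not tested. Car4 was higher on both later days, at 525, 856 and 770 CPM on days 0, 7 and 42. Slc26a3 was lower, at 628, 311 and 428 CPM. Aqp8 ran with Slc26a3, at 375, 211 and 276 CPM, so its day 7 level was the lowest of the 3 and its day 42 level lay between the others. On day 7 the log2 ratio to day 0 was 0.69 for Car4 (counting interval 0.62 to 0.77), -0.99 for Slc26a3 (-1.08 to -0.90) and -0.80 for Aqp8 (-0.91 to -0.69). None of these reached the 2-fold threshold, and Slc26a3 lay at its edge. Over the alternative settings Slc26a3 ranged from -1.19 to -0.57, Aqp8 from -1.04 to -0.47 and Car4 from 0.51 to 0.94, so no sign changed. In cells that passed a filter on depth and mitochondrial share, of which there were 546, 461 and 691, Slc26a3 stood at 436, 290 and 401 CPM and Aqp8 at 311, 221 and 280 CPM. Car4 stood at 448, 867 and 774 CPM in those cells. The day 42 log2 ratio of Slc26a3 was -0.54 in all cluster 2 cells and -0.12 in the filtered cells.

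Car1 differed little between days in cluster 2, at 1904, 2060 and 1749 CPM. Its log2 ratio to day 0 was 0.11 on day 7, with alternatives from -0.08 to 0.34, and -0.12 on day 42. Atp12a was lower on both later days, at 388, 269 and 260 CPM. Scnn1a was lower on day 7 alone, at 87.5, 58.2 and 86.3 CPM, a log2 ratio of -0.52 on day 7 and -0.02 on day 42. The other ENaC gene, Scnn1b, had its highest cluster 2 level on day 7, at 12.8, 24.1 and 5.84 CPM, so on day 7 the 2 subunit genes stood on opposite sides of day 0. On day 42 the 10 richest cells held 46.7% of the 30 Scnn1b UMIs of cluster 2.

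Slc12a2 was 14.0, 38.5 and 21.2 CPM in cluster 2 on days 0, 7 and 42, and Cftr 10.2, 8.96 and 15.8 CPM. Slc12a2 was the 1 gene of 9 past 2-fold on day 7 against day 0 in cluster 2 (log2 ratio 1.02, counting interval 0.75 to 1.28), where 2.53% of all genes were higher. None of the 9 was lower there, against 0.871% of all genes, but Slc26a3 passed the threshold under 6 alternatives (-1.19 to -1.01) and Aqp8 without the 10 richest cells (-1.04). The Slc12a2 ratio ranged from 0.72 to 1.40 over the alternatives and fell under the threshold in 5 of them. Its share of cells, thinned to 1000 UMIs, was 1.26%, 2.03% and 2.19%. On day 42 against day 0, 0 of 9 genes were past 2-fold in either direction, where 1.29% of all genes were higher and 0.254% lower. On day 42 against day 7 no gene of the 9 was higher (0.748% of all genes) and 1 was lower (1.05%), Scnn1b at a log2 ratio of -1.11 (-1.45 to -0.74).

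**Figure D2:**
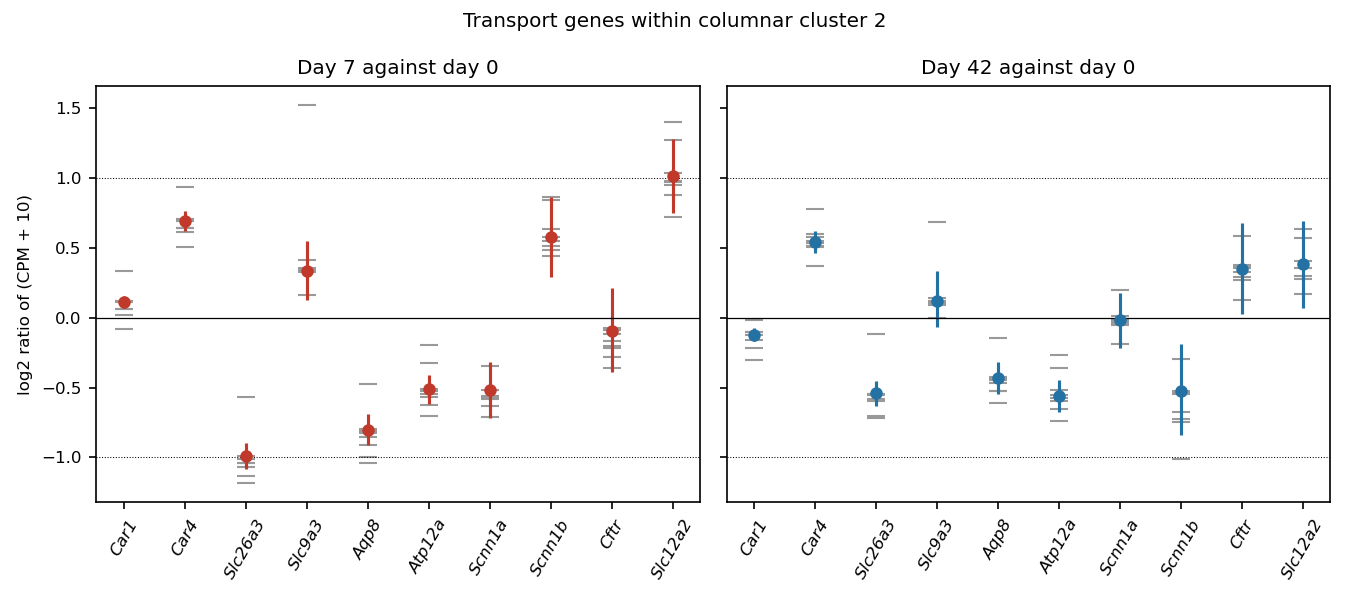
Log2 ratio of day 7 and of day 42 to day 0 in cluster 2 for each transport gene, after 10 CPM was added; points carry 95% counting intervals, grey dashes are the alternative settings and dotted lines mark 2-fold. Car4 lies above 0 on both days (0.69 on day 7), Slc26a3 and Aqp8 below it, and Slc12a2 on day 7 at 1.02.

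Shares of cells were compared at equal depth. Among cluster 2 cells thinned to 1000 UMIs (1900, 688 and 959 cells), Slc26a3 was seen in 40.9%, 24.3% and 28.4% on days 0, 7 and 42. Without thinning it was seen in 68.6%, 52.6% and 52.1%. The thinned share of Aqp8 was 30.0%, 14.97% and 20.6%, against 49.5%, 33.9% and 34.3% before thinning. Car4 was seen in 33.7%, 40.1% and 36.4% of thinned cells and in 47.9%, 54.2% and 44.1% before. Car1 was seen in 45.5%, 42.4% and 40.7% of thinned cells, so day 0 had its highest share while day 7 had its highest CPM. Per thinned cell, 1.87, 1.48 and 1.60 of 6 absorptive genes (Car1, Car4, Slc26a3, Aqp8, Atp12a and Scnn1a) were seen on average. Cells of cluster 2 in which none of the 6 was seen made up 22.2%, 25.0% and 24.7%. At this depth a cell can lack a UMI of a gene that it expresses.

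Some of these genes were found in the same cluster 2 cells. On day 0, Car4 was seen in 63.0% of thinned cells with Aqp8 and in 21.1% of those without. The gap was similar on later days, at 69.9% against 34.9% on day 7 and 66.7% against 28.5% on day 42. Slc26a3 was seen in 59.1% of cells with Aqp8 and 33.2% of those without on day 0, in 34.0% against 22.6% on day 7, and in 47.5% against 23.4% on day 42. The pairing of Car1 with several of these genes had a smaller gap on day 7 than on day 0. Aqp8 was seen in 38.4% of cells with Car1 and 23.0% of those without on day 0, but in 14.7% and 15.2% on day 7. On day 42 those shares were 24.9% and 17.8%. Car4 was seen in 41.1% of cells with Car1 and 27.5% of those without on day 0, in 40.8% and 39.6% on day 7, and in 39.2% and 34.4% on day 42. Atp12a was seen in 33.4% and 21.3% on day 0, 21.6% and 20.5% on day 7, and 22.3% and 22.1% on day 42. Slc26a3 was seen more often with Car1 on each day, in 50.9% against 32.6% on day 0, 32.2% against 18.4% on day 7 and 35.4% against 23.6% on day 42. Cells of 1 library share their source, so these shares describe the libraries and carry no test.

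**Figure D3:**
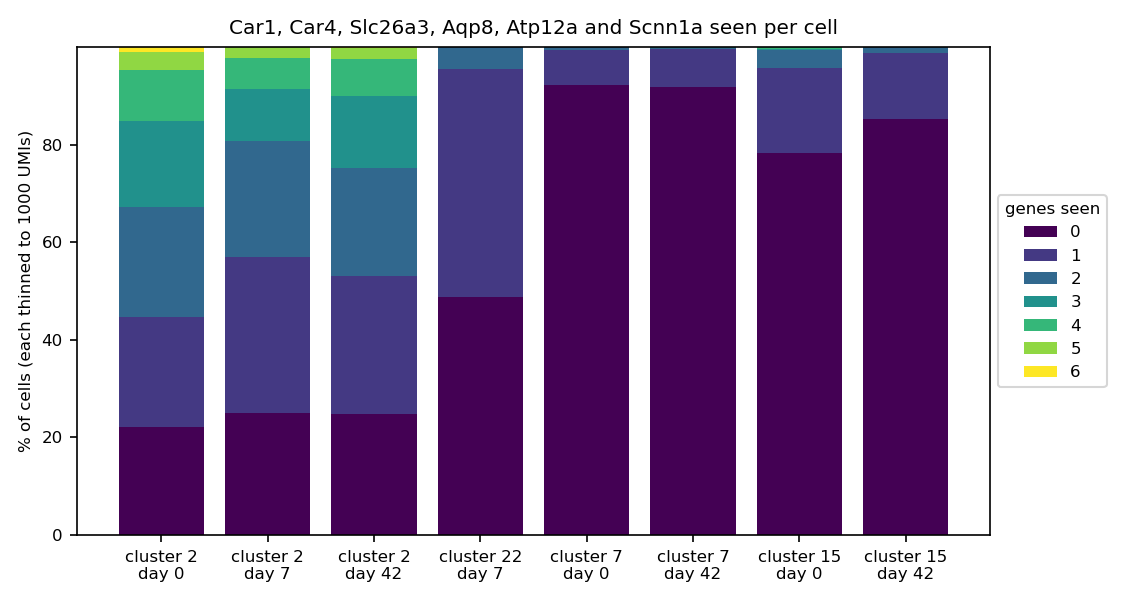
Percent of cells, thinned to 1000 UMIs, by how many of 6 absorptive genes were seen, for cluster 2 on each day, cluster 22 on day 7, and cluster 7 and cluster 15 on days 0 and 42. In cluster 2 the mean was 1.87, 1.48 and 1.60 genes, and in cluster 22 it was 0.557.

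Cluster 22, found almost only on day 7, carried Car1 with little of the other absorptive genes. Car1 stood at 794 CPM there (733 to 860), with a UMI in 69.2% of its 279 cells, against 2060 CPM in cluster 2 of the same library. Slc26a3 stood at 42.6 CPM, 7.30-fold lower than in cluster 2. Car4 stood at 6.46 CPM on 5 UMIs, 133-fold lower, and Aqp8 had a single UMI. Against cluster 2 on day 7, 7 of the genes were lower in cluster 22 (4.64% of all genes) and 0 were higher (9.07%). With means per cell the Car1 log2 ratio was -0.69 in place of -1.36, under the threshold. After thinning, 48.9% of cluster 22 cells showed none of the 6 absorptive genes and 46.6% showed 1. Cluster 22 also carried transcripts of other cell types. A list of 6 neutrophil genes summed to 12780 CPM there against 1373 CPM in cluster 2, and 8 keratinocyte genes to 9991 CPM against 2182 CPM, with every gene of both lists seen. Fibroblast, endothelial and mononuclear myeloid lists summed to 399, 152 and 158 CPM, against 61.8, 8.96 and 9.84 CPM. The goblet list was lower, at 242 against 414 CPM, and so was the columnar list, at 13411 against 25805 CPM. The neutrophil list summed to 4546 CPM in T cells of the same library, and 6 of the 279 cells were among the 5% with the highest doublet scores. At its own threshold the doublet caller marked 0 cells of that library. The part of these transcripts in the levels of cluster 22 was not tested.

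Over all columnar cells the days differed more, and the make-up of the class differed with them. Cluster 7 made up 42.0%, 3.11% and 24.5% of columnar cells on days 0, 7 and 42, cluster 2 made up 45.0%, 66.2% and 63.8%, and cluster 22 made up 26.3% on day 7. Car1 was 575, 1792 and 905 CPM over the class, and Car4 158, 666 and 360 CPM. Cftr was 48.0, 9.88 and 50.4 CPM, and Slc12a2 204, 65.1 and 193 CPM. On day 7 against day 0, 2 of 9 genes were higher (Car1 at a log2 ratio of 1.62 and Car4 at 2.01), against 3.37% of all genes. Another 2 were lower (Cftr at -1.54 and Slc12a2 at -1.51), against 2.03%. With means per cell Car1 was at 0.93, under the threshold. With equal weight for each cluster of at least 50 cells on both days, which left cluster 2 alone, the ratios were 0.11 for Car1, 0.69 for Car4, -0.09 for Cftr and 1.02 for Slc12a2. The Slc12a2 ratio thus had opposite signs over the class and within cluster 2, and the Cftr ratio was close to 0 within cluster 2.

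On day 42 against day 0, Car4 was the 1 gene past 2-fold over the class, higher at 1.14 (1.16% of all genes), and none was lower (0.361%). With equal weight for each cluster Car4 was at 0.52, and in filtered cells Car1 passed as well, at 1.28. From day 7 to day 42, 2 genes were higher (Cftr at 1.60 and Slc12a2 at 1.43; 1.04% of all genes) and 1 lower (Scnn1b at -1.05; 1.35%). That Scnn1b ratio was under the threshold with means per cell (-0.81) and without the 10 richest cells (-0.998). With equal weight for each cluster, which again left cluster 2 alone, Cftr was at 0.44 and Slc12a2 turned to -0.63. The remaining class levels did not pass 2-fold. Slc26a3 was 190, 244 and 205 CPM, Aqp8 113, 165 and 128 CPM, and Atp12a 150, 212 and 130 CPM. Their day 7 levels were the highest over the class and not in cluster 2, where day 0 was highest. With means per cell the class ratio of day 7 to day 0 turned from 0.35 to -0.43 for Slc26a3 and from 0.51 to -0.28 for Aqp8. In filtered cells it was past 2-fold for both, at 1.29 for Slc26a3 and 1.38 for Aqp8. Scnn1b, at 0.95, was past 2-fold under 5 alternatives, at most at 1.64. The median log2 ratio of the 9 genes was 0.47 on day 7 over the class and -0.09 in cluster 2, beside -0.15 and 0.04 over all genes.

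Cluster 7 and cluster 15 could be compared between days 0 and 42. In cluster 7 the secretory pair was within 2-fold of its day 0 level, with Cftr at 72.0 and 96.6 CPM and Slc12a2 at 191 and 245 CPM. Atp12a was lower in both clusters, at 40.5 and 11.5 CPM in cluster 7 (log2 ratio -1.23) and at 158 and 48.7 CPM in cluster 15 (-1.52). It was the 1 lower gene in each, where 0.502% and 0.479% of all genes were lower. In cluster 15 the ratio was -0.85 when each cell was weighted equally, under the threshold. Aqp8 lay at -0.99 in cluster 15 and passed under 4 alternatives (-2.17 to -1.18). Car1 was the 1 higher gene in cluster 7 (0.452% of all genes), at 32.0 and 210 CPM, but 10 cells held 79.3% of its UMIs on day 42. Without the richest 10 cells of each day its log2 ratio was 0.87 in place of 2.39. No gene was higher in cluster 15 (1.4%), where Car1 lay at 0.91 and passed under 3 alternatives, and Cftr lay at 0.67 and passed with 1 CPM added (1.15). Without the richest 10 cells of each day, both turned below 0 there, Car1 to -0.74 and Cftr to -0.24. The keratinocyte list summed to 1359 and 2608 CPM in cluster 7 and to 994 and 2942 CPM in cluster 15 on days 0 and 42. The neutrophil list was at 3.18 and 118 CPM in cluster 7 and at 0.853 and 116 CPM in cluster 15. The fibroblast list went the other way, at 215 and 5.66 CPM and at 121 and 5.04 CPM. In cluster 15 the goblet list was at 25114 and 50128 CPM, and the median mitochondrial share was 20.7% and 9.62%. The part of these in the ratios was not tested. The 33 cells of cluster 7 on day 7 had 1296 CPM of Car1, 24.6 CPM of Cftr and 91.6 CPM of Slc12a2. Of their 1316 Car1 UMIs, 10 cells held 91.6% and a single cell 423. Their keratinocyte list summed to 4631 CPM.

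In keratinocytes, where the mucosal lining turns to squamous epithelium, 3 of the genes had their own pattern of clusters. Scnn1a was highest in cluster 5, at 64.3, 36.3 and 48.2 CPM on days 0, 7 and 42 in 87, 162 and 2153 cells. Cluster 12 came next on days 0 and 42, at 38.1, 5.48 and 28.7 CPM, and cluster 4 stood at 20.7, 16.0 and 19.2 CPM. Scnn1b was instead highest in cluster 1, at 21.1, 16.7 and 6.85 CPM. In cluster 3, a keratinocyte cluster of 269, 1983 and 974 cells, Scnn1b was 15.1, 2.54 and 3.03 CPM. These 2 ENaC subunit genes thus peaked in different keratinocyte clusters.

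Slc12a2 was concentrated in cluster 8, at 121, 133 and 103 CPM in 781, 943 and 364 cells. Over all keratinocytes no gene was past 2-fold between days with 10 CPM added. Of 5 genes with enough counts, 0 were higher and 0 lower on day 7 against day 0, where 1.15% and 0.971% of all genes were. The same held for 5 genes on day 42 against day 0 (2.31% and 1.99% of all genes) and for 3 genes on day 42 against day 7 (1.73% and 1.43%). With means per cell, Car1 was at 1.21 on day 7 against day 0 and -1.48 on day 42 against day 7. With 1 CPM added, Scnn1a was at 1.34 on day 42 against day 7, and Atp12a at -1.02 on day 42 against day 0. Keratinocytes numbered 3316, 9035 and 7970 on days 0, 7 and 42, while columnar cells numbered 4306, 1062 and 1680, and the place of the transcripts differed by day as well. The keratinocytes held 13.2%, 80.5% and 36.0% of all Slc12a2 UMIs, 45.0%, 72.1% and 77.7% of Scnn1b UMIs and 21.96%, 65.3% and 68.6% of Scnn1a UMIs on days 0, 7 and 42. They also held 1.03%, 17.8% and 24.2% of 2136, 107 and 745 Cftr UMIs, although no keratinocyte cluster was above 4.95 CPM of Cftr. Over all keratinocytes the columnar list summed to 616, 483 and 1660 CPM on days 0, 7 and 42. The neutrophil list summed to 24.1, 1598 and 198 CPM, and the part of both in these levels was not tested. Columnar cells held 96.7%, 91.3% and 95.6% of Slc26a3 UMIs. Car1 was listed in cluster 5 at 53.8, 42.7 and 12.1 CPM, far under its cluster 2 level.

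**Figure D4:**
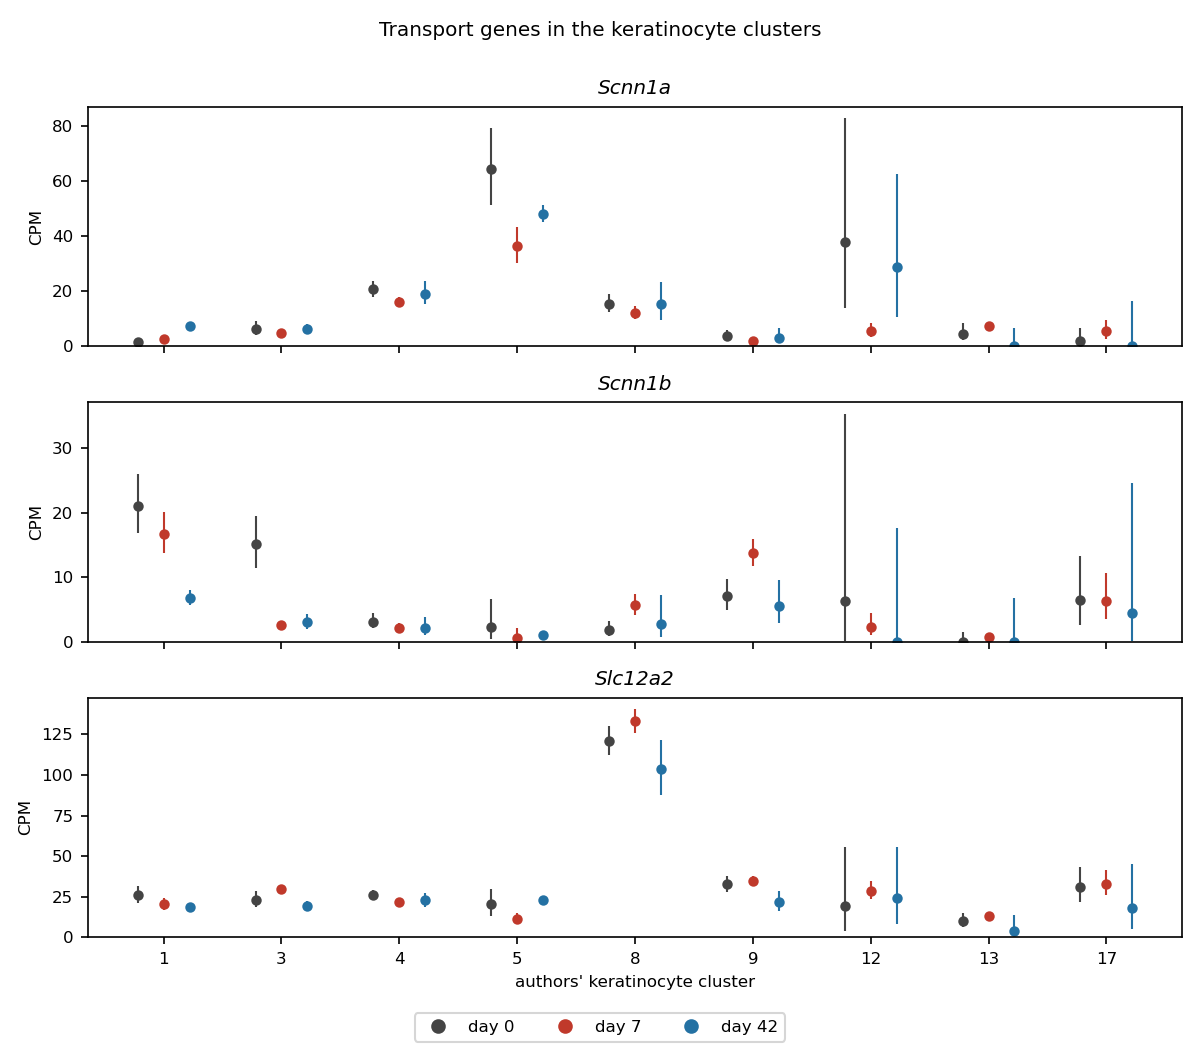
Level (CPM, linear axes) of Scnn1a, Scnn1b and Slc12a2 in 9 keratinocyte clusters on days 0, 7 and 42, with 95% Poisson intervals. Scnn1a peaks in cluster 5 (64.3 CPM on day 0) and Slc12a2 in cluster 8 (121 CPM on day 0).

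A list of 46 other genes of ion and water transport gave the wider pathway. In cluster 2 on day 7 against day 0, 37 had enough counts, 2 were higher and 3 lower, beside 2.53% and 0.871% of all genes. The median log2 ratio of the list was 0.12, beside 0.04 over all genes. The 3 lower genes all belonged to its chloride and bicarbonate group, and all 16 sodium transport genes with enough counts were within 2-fold, although 4 of them passed it under some alternative. Slc26a2 and Ano1 were within 2-fold of day 0 over all columnar cells, and were chosen after their values were seen. The sulfate and anion exchanger Slc26a2 was 997, 382 and 592 CPM in cluster 2 on days 0, 7 and 42. Cytosolic carbonic anhydrase Car2 was 1044, 339 and 489 CPM. The calcium-activated chloride channel Ano1 was 137, 43.8 and 141 CPM. Their log2 ratios on day 7 were -1.36, -1.59 and -1.45, and each passed 2-fold under every alternative run for them. Car2 and Car4, which act on the same reaction, thus stood on opposite sides of day 0 in cluster 2, with Car1 close to it.

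The 2 higher genes of cluster 2 were the potassium channel Kcnk1, also chosen after its values were seen, at 41.6 and 106 CPM on days 0 and 7, and the water channel Aqp4, at 2.12 and 107 CPM. Aqp4 was 41.5 CPM there on day 42 and was seen in 0.981%, 16.1% and 9.24% of cluster 2 cells. In cluster 7 Aqp4 was 10.3, 168 and 110 CPM, with a UMI in 10.9%, 63.6% and 57.0% of cells, the day 7 value resting on 33 cells. In cluster 22 on day 7 it was 77.5 CPM, and T cells held no Aqp4 UMI in any library. Aqp4 and Aqp8 thus stood on opposite sides of day 0 in cluster 2 on both later days. On day 42 against day 0 in cluster 2, Aqp4 was the 1 higher gene of the list (1.29% of all genes were higher). The 2 lower genes (0.254% of all genes were lower) were Car2 and Fxyd4, a regulator of the sodium pump, at 510 and 196 CPM. Under some alternative Kcnk1 (0.97, at most 1.11) and other list genes were higher as well, and Scnn1g (-0.54, at the lowest -1.01) was lower.

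Over all columnar cells on day 7 against day 0, 7 of 39 list genes were higher and 4 lower, where 3.37% and 2.03% of all genes were. Fxyd4 was 173 and 474 CPM over the class, and 104 CPM on day 42. Guca2a, the precursor of the gut peptide guanylin, was 223 and 592 CPM, and 465 CPM on day 42. Sgk1, a kinase that increases ENaC at the membrane, was 37.8 and 102 CPM, and St14, a membrane protease (matriptase), was 90.3 and 192 CPM. Kcne3, a potassium channel subunit used in chloride secretion, was lower at 141 and 42.1 CPM. Kcne3 lay mainly in cluster 7, at 214 and 222 CPM on days 0 and 42 against 24.1 and 25.7 CPM in cluster 2. In cluster 2, Guca2a, Sgk1, St14 and Kcne3 had log2 ratios of 0.65, 0.62, 0.86 and 0.47 on day 7. Fxyd4 was at 0.12 there, with alternatives from -0.07 to 0.19.

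**Figure D5:**
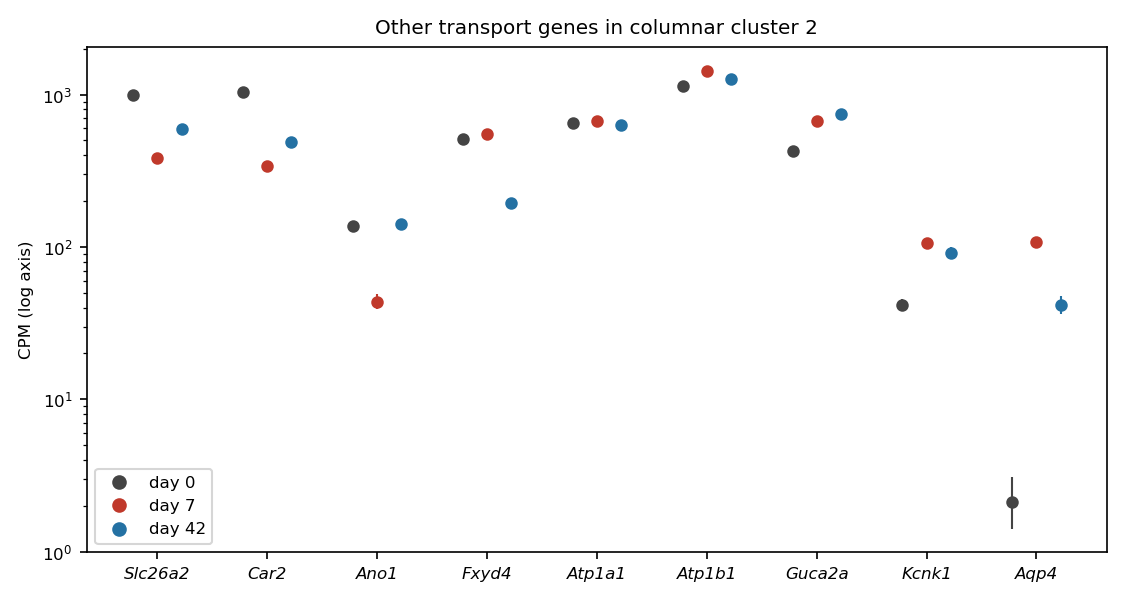
Level (CPM, log axis) of 9 other transport genes in cluster 2 on days 0, 7 and 42, with 95% Poisson intervals. Car2, Slc26a2 and Ano1 are lowest on day 7, and Aqp4 goes from 2.12 to 107 and 41.5 CPM.

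Over 60 combinations of cluster and library, the genes whose log2 levels ran most like each transport gene were found among 5354 genes. The points share libraries, so the Pearson coefficients are descriptions. Aqp8 ran most like Slc26a3 (0.932), and Slc26a3 most like Ceacam20 (0.942), Ces2c (0.939) and Cyp2c55 (0.936). Car4 ran most like Aqp8 (0.814), Slc26a3 (0.798) and Clic5 (0.787). Car1 ran most like Sult1b1 (0.917), Dmbt1 (0.916) and Lypd8 (0.907). Atp12a ran most like Cyp2d34 (0.916), and Slc12a2 most like Creb3l1 at a lower 0.723.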

How the data were processed

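Single cells of pooled distal colon and anus were sequenced by droplet 3′ RNA sequencing, 1 library per day. The deposited matrix holds UMI counts per gene and cell, and the submitters' processing notes name Cell Ranger 3.0.2 and mm10. The annotation release and the aligner settings are not given in the sources used here. The authors also deposited a size factor per cell, a ratio that equals the cell's total over a constant and was not used for levels, and map coordinates, a score with no unit that was not used. Cluster numbers and names are the authors' own. Here, counts were summed per cluster and library and divided by the summed counts (CPM), with exact Poisson intervals for counts and Clopper-Pearson intervals for shares, at 95%. UMIs share cells, so these intervals and limits cover counting error only. Ratios added 10 CPM and a call needed 2-fold and 5 CPM in either group. A simulation checked ratios with median-of-ratios scaling and without the 10 CPM, and the Poisson intervals, but not the calls. No fit was made, since 1 library per day leaves no replicate to test against. For shares, cells were thinned to 1000 UMIs with seed 1. Genes of the wider list were to be named where they passed 2-fold against day 0 over columnar cells and reached 100 CPM there on a day. Slc26a2, Ano1 and Kcnk1 fall outside that rule, and these and Scnn1g were chosen after their values were seen. Clusters with under 50 cells in a library had no ratio between days of their own. Their cells still counted in the ratios over all columnar cells. Alternatives used cells with a depth from 1000 UMIs and 500 genes up and a mitochondrial share no higher than 20%, median-of-ratios scaling, totals without mitochondrial and ribosomal protein genes, 1 CPM added, means per cell, equal weight per cluster, and data without the 10 richest cells, the 5% highest doublet scores (Scrublet in scanpy 1.11.5), shared barcodes or cluster 22. The deposited matrix had doublets removed here only in that alternative, and at Scrublet's own threshold 453, 0 and 294 cells were marked on days 0, 7 and 42, so that caller did not work on day 7. Promoters came from RefSeq (GRCm38.p6). Scripts ran in Python 3.11.15 with pandas 2.3.3, scipy 1.17.1, numpy 2.4.6 and matplotlib 3.10.9. The genes and lists were chosen with earlier results of these data known.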

Additional observations from a re-analysis of the deposited data

Results flagged for a closer look

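Below are 4 flagged cases, at 121 to 548 CPM, of a transport gene above its day 0 level outside the columnar and keratinocyte clusters. They are a selection and not a count of all such cases. No call at the 2-fold threshold and no share over all genes is given for them. Car1 was 281 CPM in fibroblasts (cluster 10) on day 7, against 14.5 CPM on day 0, with a UMI in 12.97% of 316 cells, and 10 cells held 86.2% of those UMIs. The columnar marker list summed to 342, 720 and 306 CPM in fibroblasts on days 0, 7 and 42, and the neutrophil list to 51.4, 3107 and 553 CPM. Their part in the Car1 level was not tested. Slc12a2 was 127 CPM in fibroblasts on day 42, against 35.5 CPM on day 0 and 31.7 CPM on day 7, with 62.1% of its UMIs in 10 of 222 cells. The keratinocyte list summed to 1271, 1875 and 4271 CPM in fibroblasts on days 0, 7 and 42, and its part in the Slc12a2 level was not tested. Slc12a2 was also 121 CPM in endothelial cells (cluster 16) on day 7, against 58.0 CPM on day 0, with a UMI in 40.3% of cells. Car4 was 548 CPM in lymphatics (cluster 21) on day 7, against 78.3 CPM on day 0 and 46.1 CPM on day 42. A Car4 UMI was seen in 50.5% of the 190 lymphatic cells of day 7. The columnar marker list summed to 504, 105 and 242 CPM in lymphatics on days 0, 7 and 42. The endothelial list summed to 2252, 2783 and 2759 CPM there, and the neutrophil list to 39.2, 2846 and 346 CPM. The part of columnar and neutrophil transcripts in the Car4 level was not tested.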

How the results depend on the processing

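Of 1501 values of the transport genes recomputed under an alternative, 65 changed sign and 71 changed side of the 2-fold threshold. Equal weight per cluster left cluster 2 alone for day 7 against day 0 and for day 42 against day 7. Over all columnar cells, Slc12a2 reversed with it, to 1.02 and to -0.63. Among genes not past 2-fold on day 7 against day 0, Slc26a3, Aqp8 and Scnn1a also changed sign there with means per cell and with equal weight, and Atp12a with equal weight. Genes past 2-fold over columnar cells numbered 341 higher and 206 lower on day 7 against day 0, 116 and 36 on day 42 against day 0, and 102 and 132 on day 42 against day 7. With 1 CPM added they numbered 668 and 868, 249 and 177, and 359 and 328. Totals without mitochondrial and ribosomal protein genes gave 440 and 70 lower on days 7 and 42 against day 0, equal weight gave 80 lower on day 7, and leaving out the highest doublet scores gave 19 lower on day 42 against day 0. Of the transport genes over columnar cells, those higher on day 7 against day 0 numbered 5 in filtered cells and 1 with means per cell or equal weight, and 0 were lower with equal weight. Those higher on day 42 against day 0 numbered 2 in filtered cells and 0 with equal weight. On day 42 against day 7, 0 were higher with equal weight. Those lower then numbered 2 in filtered cells or without cluster 22, 3 with median-of-ratios scaling, and 0 with means per cell or without the 10 richest cells. In cluster 2 on day 7, 0 were higher in filtered cells, with median-of-ratios scaling, with the reduced totals, with means per cell and without the 10 richest cells. Those lower there numbered 1 with median-of-ratios scaling, the reduced totals, 1 CPM added, means per cell or no high doublet scores, and 2 without the 10 richest cells. On day 42 against day 0, 1 was lower in cluster 2 with 1 CPM added. The cause was not tested. Calls were also gained by Scnn1a (1.01, means per cell, day 0), Scnn1b (3 alternatives, day 42) and Cftr (1.14, without the 10 richest cells, day 42) for cluster 2 against cluster 15, by Scnn1b for cluster 2 against cluster 7 on day 42 (2.07, 1 CPM added), by Cftr for cluster 22 against cluster 2 (-1.47, 1 CPM added), and by Car1 and Car4 over columnar cells on day 42 against day 7 (3 alternatives and 1). Leaving out shared barcodes, the reduced totals in cluster 2 and every alternative for cluster 7, cluster 15 and contrasts between clusters were chosen after seeing the data. No paired analysis was possible because each day is 1 library. In a cluster of 33 cells or with few UMIs, depth limits what can be seen.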

Other observations

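Slc12a2 was also present in muscle-like cells (cluster 20), at 228 CPM in 296 cells on day 0, with a UMI in 47.3% of them.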
